A study of Mus musculus with 2 samples.

Results

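The cells described here are the B cells of hearts under pressure overload. They were chosen by expression in 1 single-cell transcriptome library: a cell was taken when mitochondrial genes held at most 25% of its counts, when Cd79a reached 50 CPM (a gene's count over the cell's total, in counts per 1e6), when Ms4a1 or Cd79b reached 50 CPM, and when Cd3d, Cd3e and Csf1r each stayed below 50 CPM. In all, 147 of 878 cells met this rule (16.7%, 14.3 to 19.4). The hearts came from mice with the genotype Cdh5-CreERT2 and REFLEX, kept specific pathogen-free, given tamoxifen and operated by transverse aortic constriction, a banding of the aorta that makes the left ventricle pump against a raised load. Cdh5-CreERT2 drives a tamoxifen-inducible recombinase from the promoter of VE-cadherin, an endothelial gene, and in REFLEX hearts GFP marks cells that the submitters call interacting. CD45+ and CD45- cells, each with and without GFP, were pooled, 20000 cells were loaded, and the deposited matrix holds 31192 genes. All cells share the genotype, tamoxifen and the operation; an unoperated heart was not analysed here, age, sex and the number of mice are not stated in the sources used here, and no source ties a cell to a GFP fraction. Perfusion of the hearts is not stated either, so B cells of the tissue and of blood in its vessels cannot be told apart.

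B cells are lymphocytes that recognise antigen through a membrane immunoglobulin, made of heavy and light chains and joined to the signalling chains CD79A and CD79B. Naive follicular B cells carry IgM together with IgD and recirculate through blood and lymphoid organs, marginal zone and B1 cells respond early to blood-borne and body-cavity antigens, and activated cells can form germinal centres or become antibody-secreting plasma cells. In the mouse heart most B cells are known to be recirculating cells found in close contact with the small vessels.

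With 1 library there were no replicates and no test. The level of a gene in a class is the CPM of its counts pooled over that class, and ratios compare these levels. Brackets hold exact 95% intervals (Poisson for sums, Clopper-Pearson for shares and ratios), which cover counting error only and are too narrow if the counts are reads rather than molecules. A gene counted as higher or lower when the 2 classes together had 50 counts, the higher class reached 50 CPM, the ratio was 2 or more (or 0.5 or less) and its interval left out 1. The comparison classes were 710 other cells, and within them 100 T cells, 311 mononuclear phagocytes and 173 neutrophils, each also chosen by marker thresholds and with Cd79a under 50 CPM. Other cells that met none of these definitions were not described as a class. Counts are not scaled to transcript length, so each gene is compared between cells and not with other genes. Since expression chose the cells, every difference between classes is a description. A gene under 50 CPM in B cells was tested only when the comparison class reached 50 CPM, and could then not be higher. Likewise, a gene under 50 CPM in the comparison class could not be lower in B cells.

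The B cells had 29299 to 320024 counts each (median 67914) and a median of 3352 genes above 0. The other cells had a median of 82600 counts. Mitochondrial genes held a median of 3.28% of B cell counts, and 5 of the 147 cells had names beginning with doublet. All 147 barcodes were also present in the hashtag library. The lowest Cd79a in a member was 441 CPM and the highest value under the threshold was 44.9 CPM. The higher of Ms4a1 and Cd79b was at least 71.9 CPM in every member and at most 21.9 CPM in cells kept out by that condition alone. Members had at most 32.1 CPM of Cd3d, 16.6 of Cd3e and 45.7 of Csf1r. Ms4a1 reached 50 CPM in 123 members, Cd79b in 106 and both in 82. Beyond the rule, 22 other cells had Cd79a at 50 CPM or more. Of these, 15 had neither Ms4a1 nor Cd79b at 50 CPM and no T cell or Csf1r signal, and Ighm reached 50 CPM in 14 of the 15. The group of other cells therefore holds some cells with B cell transcripts.

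Genes that the rule did not use followed the label. Pax5, the transcription factor that maintains B cell identity, reached 50 CPM in 104 of 147 cells, and Ebf1, another factor of the lineage, in 108. No member had 3 or more markers of NK cells, dendritic cells, plasma cells, endothelial cells, fibroblasts or cardiomyocytes at that level, nor of T cells, whose markers Cd3d and Cd3e the rule itself kept below it. Monocyte and macrophage markers were present in 2 members, both deep and both named with tag A965. The first, with 320024 counts, had 9818 CPM of Lyz2, 2281 of Spp1 and 5353 of Ccl4, and the other, with 153215 counts, had 6462 CPM of Lyz2 and 6925 of Il1b. These 2 cells held 88.0% of all Lyz2 counts and 93.0% of all Ccl4 counts of the 147 cells. The 8 monocyte and macrophage markers summed to 537 CPM over all members and to 80.6 CPM without these 2, against 12880 CPM in the other cells. Neutrophil markers reached 50 CPM for 3 genes in 3 members. S100a8, a neutrophil protein, was above 0 in 98.0% of B cells and had a median of 97.5 CPM per cell; at an equal depth of 25000 counts it was found in 89.8% of B cells and 89.0% of T cells, against every neutrophil, a class that S100a8 helped to define. Values without the 2 cells are given where they matter.

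The antigen receptor of these cells was that of unswitched cells with IgM and IgD. Ighm, the constant region of IgM, ranged from 0 to 7615 CPM in single cells with a median of 1885, and Ighd, the constant region of IgD, from 0 to 3785 with a median of 611. Each gene thus varied widely between cells. Both reached 50 CPM in 135 of 147 cells (91.8%, 86.2 to 95.7), Ighm without Ighd in 11, Ighd without Ighm in 0 and neither in 1. Summed Ighm was 2192 CPM (2165 to 2221) in B cells, 65.1 in T cells, 46.9 in mononuclear phagocytes and 149.7 in neutrophils. Ighm also reached 50 CPM in 20 of 100 T cells, 61 of 311 mononuclear phagocytes and 38 of 173 neutrophils, so its presence by itself did not separate the classes. The pair of Ighm and Ighd at 50 CPM occurred in 0 of 100 T cells, 0 of 311 mononuclear phagocytes and 0 of 173 neutrophils, which allows shares of up to 3%, 0.965% and 1.73% (3 cells over the number of cells, the limit used here for a count of 0; exact intervals end at 3.62%, 1.18% and 2.11%). Of the switched isotypes, Ighg1, Ighg2b and Igha were in the matrix, and 1 B cell reached 50 CPM for any of them, an Ighg2b level of 571 CPM. The 11 cells with Ighm and no Ighd were also compared with the 135 for follicular genes. Fcer2a reached 50 CPM in 5 of 11 and 78 of 135, and Ccr7 in 7 of 11 and 109 of 135, differences within the counting intervals of the shares.

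**Figure D1:**
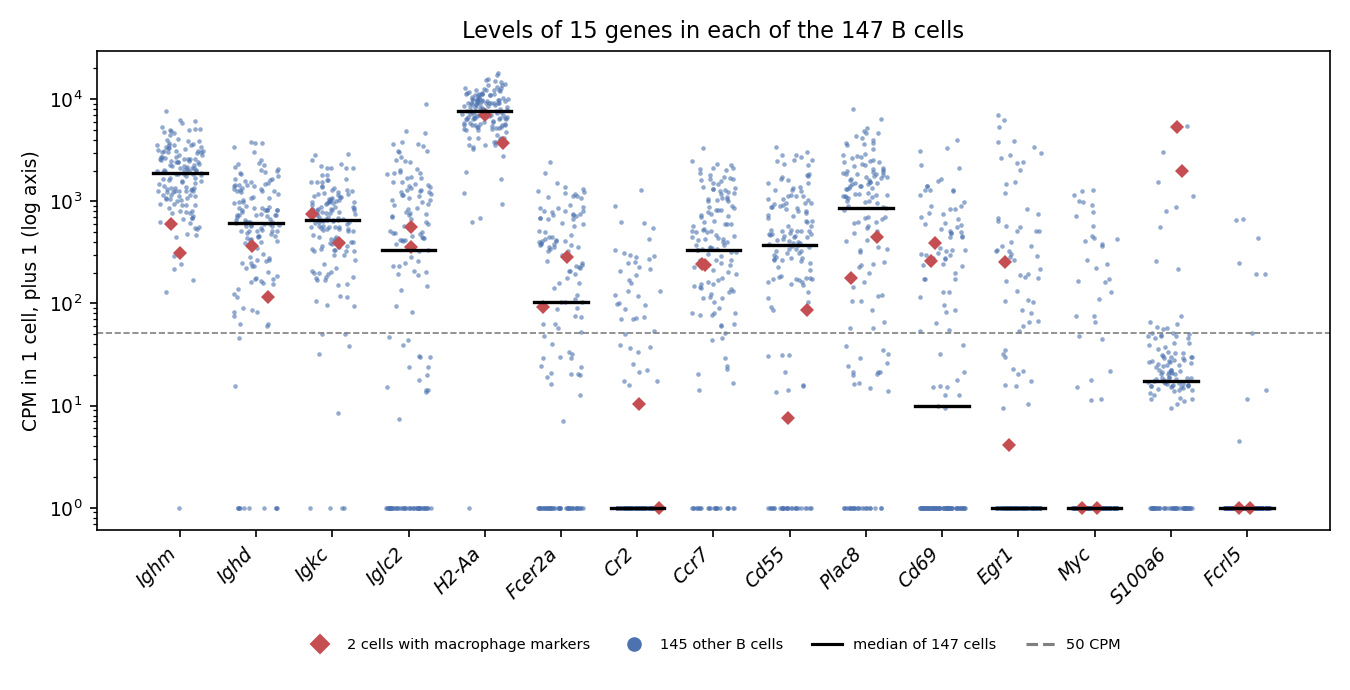
Levels of 15 genes in each of the 147 B cells, as CPM plus 1 on a log axis; each point is 1 cell, black bars are medians, diamonds are the 2 cells with macrophage markers and the dashed line is 50 CPM. Ighm and H2-Aa were high in nearly every cell, Fcer2a, Ccr7 and Cd55 in most, and Egr1, Myc, Cr2 and Fcrl5 in a minority, while S100a6 was low in most cells and above 200 CPM in a few.

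Both kinds of light chain message were found in most cells. Igkc, the kappa constant region, ranged from 0 to 2940.1 CPM with a median of 654 and reached 50 CPM in 138 of 147 cells. A lambda constant gene (Iglc1, Iglc2 or Iglc3) reached 50 CPM in 117 cells, and both chains did in 109 (74.1%, 66.3 to 81.0). Igkc alone did so in 29 cells and lambda alone in 8. In T cells, mononuclear phagocytes and neutrophils no cell reached 50 CPM for either, so signal for both chains at this level was seen in B cells and in no cell of these 3 classes. Igkc took 33.5% (32.9 to 34.1) of light chain constant counts. This share depends on how shared reads were assigned. Gm30211, a long noncoding RNA whose RefSeq entry (mouse assembly GRCm38.p6) lies next to Igkc with 0 genes between, had the same count as Igkc, within 1%, in 47 of the 143 cells with Igkc, and in 0 of the 143 did it lie further below. Fractional values held 95.4% of Igkc counts, 96.4% of Gm30211 counts and 96.9 to 99.1% of those of the lambda genes, against 0.235% for Fcer2a. With Gm30211 counted as kappa, the kappa share was 53.5% (53.0 to 54.1), and cells with more kappa than lambda counts went from 69 to 99 of 147. The split between light chains and among Iglc1, Iglc2 and Iglc3 is therefore uncertain.

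**Figure D2:**
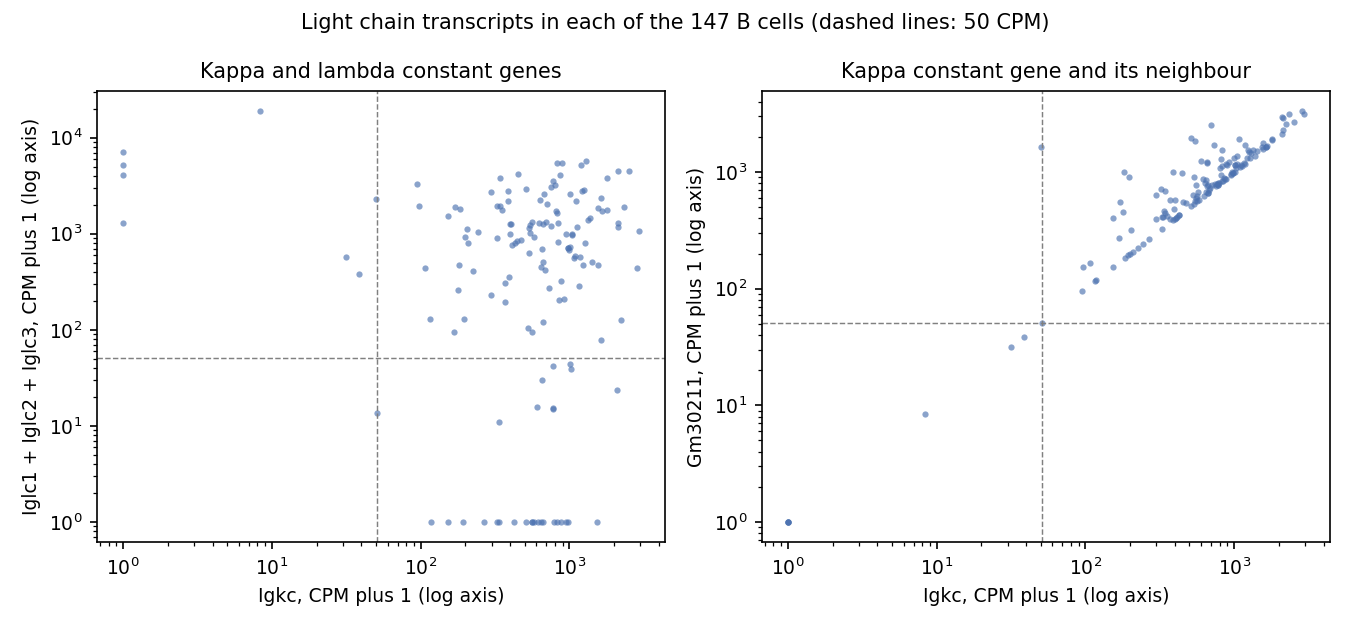
Left, the summed lambda constant genes against Igkc in each of the 147 B cells; right, Gm30211 against Igkc; all axes are CPM plus 1 on log scales and dashed lines mark 50 CPM. Most cells lie above 50 CPM for both chains on the left, and on the right many cells have equal values of Igkc and Gm30211 (47 of the 143 with Igkc).

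The variable segments of the light chains differed from cell to cell. The matrix holds 33 Igkv, 3 Iglv and 10 Ighv genes, so the heavy chain could be followed in few cells. At least 5 Igkv counts were found in 111 of 147 cells (75.5%, 67.7 to 82.2) and in 1 of 100 T cells, 1 of 311 mononuclear phagocytes and 0 of 173 neutrophils. The leading Igkv gene took a median of 99.6% of a cell's Igkv counts and at least 90% in 88 of 111 cells. In all, 31 different Igkv genes led, and the most frequent, Igkv1-117 and Igkv17-127, led in 7 cells each. Lambda segments were rarer: 5 Iglv counts were found in 17 cells, and in 15 of the 116 cells with at least 5 Iglc counts (12.9%, 7.42 to 20.4), while Igkv segments were found in 56 of the 78 cells with more Iglc than Igkc counts. An Ighv and an Igkv gene could both be read in 9 cells, of which 2 shared the same pair.

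Most receptor and coreceptor genes were far higher in B cells, and those that were not are known from other leukocytes as well. Of 16 genes in this list, 14 were higher in B cells than in all other cells and 0 lower, where 20.7% of 3551 genes tested were higher and 22.6% lower. The rule used 2 of them, Cd79a and Cd79b. The median log2 ratio of the list, with 1 CPM added to both sides, was 5.33, and 0.00 over all 18243 genes with 50 counts. Without the other cells that had Cd79a at 50 CPM it was 6.29. Cd22, an inhibitory receptor of sialic acids, ranged from 0 to 1709.8 CPM in single cells with a median of 28.7. Its sum was 135 CPM (128 to 142) against 2.40 in all other cells, and Cr2, the complement receptor of the B cell coreceptor complex, at 60.1 CPM (55.6 to 64.9) against 0.950. Cd81, a tetraspanin, was at 107 CPM (101 to 114) against 29.5 (ratio 3.64, 3.39 to 3.90). The exceptions were Fcgr2b, the inhibitory receptor for IgG, at 163 CPM against 299.7 in all other cells and 5.44 in T cells, and Ptprc, which encodes CD45, at 409 against 732 (lower by the same limits when each cell was weighted alike, log2 ratio -1.15). Fcgr2b was lower than in mononuclear phagocytes (448 CPM, ratio 0.365, 0.348 to 0.383). Against T cells 15 of 16 were higher, where 18.1% of 3355 genes were, and against mononuclear phagocytes 14 were higher and 1 lower, where 23.7% and 26.0% of 3624 genes were.

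Among genes that carry the receptor signal, B cells differed less from mononuclear phagocytes than from T cells. Against T cells 13 of 15 signalling genes tested were higher and 0 lower, with a median log2 ratio of 3.68, while against mononuclear phagocytes 7 of 15 were higher and 0 lower, with a median of 0.92. Over all genes the medians of these 2 comparisons were 0.04 and 0.10. The shares of all genes tested that were higher and lower were 18.1% and 12.5% against T cells, and 23.7% and 26.0% against mononuclear phagocytes. Syk, the kinase that binds the phosphorylated receptor, was at 292 CPM in B cells, 3.93 in T cells and 179 in mononuclear phagocytes. Btk, a kinase downstream of Syk, was at 109, 0.798 and 36.4 CPM. Lyn, a Src family kinase shared with myeloid cells, was at 325, 22.9 and 414 CPM. These 3 kinases had in common that T cells held little of them. Blk, another Src family kinase, stood out from phagocytes, at 170.1 CPM against 0.492 there and 13.1 in T cells. Blnk, the adaptor between Syk and its targets, was at 228 CPM (219 to 237) against 19.3 in all other cells (ratio 11.8, 11.1 to 12.6). Bank1, a scaffold of receptor signalling, was at 564 CPM (549.7 to 578) against 14.2, and Rasgrp3, an activator of Ras, at 111 CPM (104 to 117) against 3.09.

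The transcription factors of the lineage were mostly higher as well. Of 18 in the list, 17 were tested against all other cells, 14 were higher and 0 lower, and the median log2 ratio was 2.44. The shares over all genes tested were 20.7% higher and 22.6% lower. Ebf1, which opens the B lineage programme, had single-cell values from 0 to 7693 CPM with a median of 255, and a sum of 523 CPM (509.6 to 537) against 11.1 in all other cells. Pax5 was at 322 CPM (312 to 333) against 7.53, and Pou2af1, a coactivator of octamer-binding factors, at 246 CPM (237 to 255) against 3.63. All 3 were thus low in the rest of the library. Spib, an ETS factor, was at 133 CPM against 2.18, and Mef2c, a factor used by muscle and B cells, at 594 against 65.7. Ets1 and Bach2 were shared with T cells, at 693 and 607 CPM for Ets1 and 234 and 195 CPM for Bach2. Ikzf1, an Ikaros factor of all lymphocytes, was not called, at 98.4 CPM against 84.3 (ratio 1.17, 1.09 to 1.24).

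Follicular genes were the subset list with the most higher members. Of 15 genes, 13 were higher than in all other cells and 0 lower (median log2 ratio 2.76), against 20.7% and 22.6% of all genes tested. Against T cells 9 of 15 were higher and 0 lower (median 2.64; 18.1% and 12.5% of all genes), and against mononuclear phagocytes 13 were higher and 1 lower (median 5.28; 23.7% and 26.0% of all genes). Fcer2a, the low-affinity IgE receptor CD23 of follicular cells, ranged from 0 to 2427 CPM with a median of 102. It was above 0 in 68.7% of B cells and, at 25000 counts per cell, in 62.6% (54.2 to 70.4), against 0 of 100 T cells and 1.29% of mononuclear phagocytes. Its sum was 296 CPM (286 to 306) against 3.25 in all other cells (ratio 91.0, 80.7 to 103). Ccr7, the receptor that guides lymphocytes into T cell zones and lymphatics, was at 539 CPM in B cells, 283 in T cells and 3.15 in mononuclear phagocytes, and Cxcr5, the follicle homing receptor, at 124, 6.18 and 10.9. Ccr7 was thus shared with T cells and Cxcr5 was not. S1pr1, the receptor for exit into the circulation, was alike in B and T cells (283 and 293 CPM, ratio 0.964, 0.916 to 1.01) and low in mononuclear phagocytes (3.26). Tnfrsf13c, the BAFF receptor, was at 71.0 CPM (66.0 to 76.2) against 1.42. Klf2, a regulator of lymphocyte trafficking, was at 1955 CPM against 911 (ratio 2.15, 2.11 to 2.18), a call that was lost when each cell was weighted alike (log2 ratio 0.91). Ms4a4c was not called, at 143 CPM against 200.5.

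Marginal zone and immature features were scattered. Of 6 marginal zone genes tested against all other cells, 1 was higher, Cr2, which is also in the follicular list, and 4 were lower. The shares over all genes tested were 20.7% and 22.6%. Cr2 reached 50 CPM in 33 of 147 cells, in 21 of 84 cells with Fcer2a at that level and 12 of 63 without, so the pair did not separate a Cr2-positive, Fcer2a-negative group beyond the overlap of these shares (intervals 16.2 to 35.6% and 10.2 to 30.9%). Cd9, a tetraspanin of marginal zone and B1 cells, was lower in B cells at 15.7 CPM against 459, and so was tested through the other cells alone. Mzb1, an endoplasmic reticulum chaperone of antibody-producing B cells, had 34.4 CPM in B cells and 0.483 in all other cells, under the 50 CPM floor of a call. The count of lower genes is thus no measure of marginal zone cells. Of the immature list, 5 genes were tested, with 2 higher and 2 lower, beside the same shares over all genes (20.7% and 22.6%). Vpreb3, a surrogate light chain related gene, was at 197 CPM (189 to 206) against 2.22 and reached 50 CPM in 53 cells. Cd24a, the heat stable antigen, was at 348 CPM against 174 (ratio interval 1.93 to 2.08), at the limit of a call, which it missed in 3 alternatives (log2 ratio 0.28 with each cell weighted alike). Cd93, a marker of newly formed B cells, reached 50 CPM in 14 cells, 5 of 53 with Vpreb3 and 9 of 94 without. The recombinase genes Rag1 and Rag2, used while receptors are assembled, were at 0.695 and 0.185 CPM, and Vpreb1 was at 0, where 3 counts would give 0.278 CPM.

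**Figure D3:**
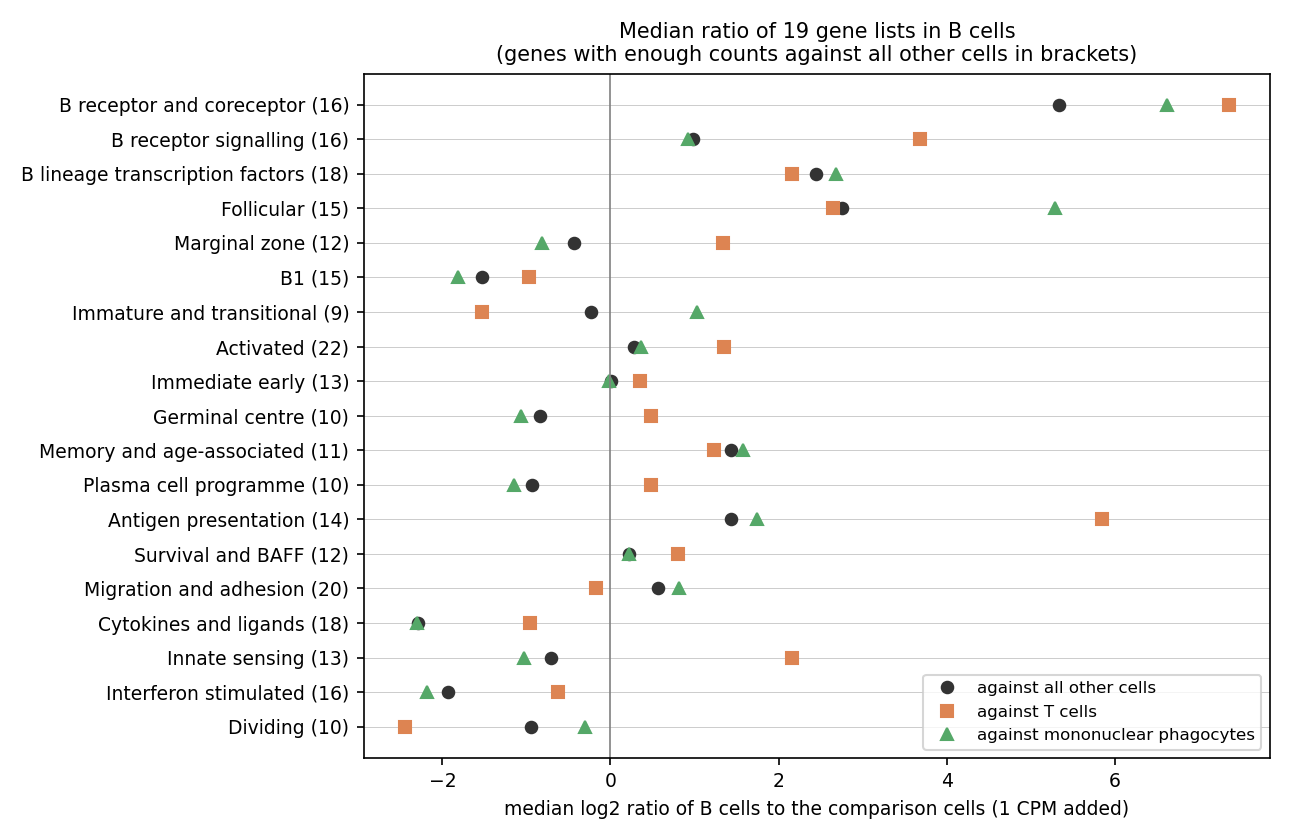
Median log2 ratio of each gene list in B cells against all other cells (circles), T cells (squares) and mononuclear phagocytes (triangles), with 1 CPM added to both sides; the number of genes with 50 counts is in brackets. Receptor, lineage factor and follicular lists lie to the right of 0 in all 3 comparisons, cytokine, interferon and dividing lists to the left, and antigen presentation lies further right against T cells (5.84) than against all other cells (1.43).

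At 50 CPM, the 5 B1 features counted per cell were each found in few cells. The B1 list held 8 genes tested against all other cells, and 8 were lower in B cells, but Spn, Plscr1, Cd9 and Itgb1 were under 50 CPM in B cells and passed the filter through the other cells alone, so this count is no measure of B1 cells. The list summed to 983 CPM in B cells, and to 607 CPM without the 2 cells with macrophage markers. Many of its genes, such as Anxa2, Lgals1 and S100a6, are also expressed by myeloid cells. Of the 5 features counted per cell, Cd5, a negative regulator of the receptor on B1a cells, reached 50 CPM in 1 of 147 cells, Spn, which encodes CD43, in 3, Zbtb32, a transcriptional repressor, in 3, Bhlhe41, a transcription factor of B1a cells, in 8, and Ctla4, an inhibitory receptor, in 10. At least 1 feature was present in 21 cells (14.3%, 9.07 to 21.0), exactly 2 in 4 cells and 3 or more in 0 of 147, which allows up to 2.04% (the exact interval ends at 2.48%). Ctla4 is uncertain, since its count equalled that of the pseudogene Rpl18-ps1 within 1% in 106 of the 133 cells where it was above 0, and in 2 of the 10 cells that reached 50 CPM. Without Ctla4, 14 cells had a feature (9.52%, 5.31 to 15.5).

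The cells with 2 features fell into unlike profiles. The first had Zbtb32 at 101 CPM and Ctla4 at 161, with Ighm at 3134 and Ighd at 61.5 CPM, no Fcer2a or Cr2, S100a6 at 1559 and Plac8 at 3760 CPM. The second was alike, with Zbtb32 at 109, Ctla4 at 141, Ighm at 5078, Ighd at 0 and S100a6 at 5419 CPM. Both had little IgD and much S100a6. The third had Spn at 202, Ctla4 at 781, Ighm at 4950 and Fcrl5, a receptor of innate-like B cells, at 192 CPM, with S100a6 at 10.6 CPM. The fourth had Spn at 235 and Bhlhe41 at 888 CPM with Fcer2a at 670.3 CPM, and so kept a follicular marker that the first 3 had at or near 0.

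S100a6, a small calcium-binding protein, was high in a small group of B cells, for which a limit of 200 CPM was chosen after its values were seen. Apart from the 2 cells with macrophage markers, 9 cells had 218 to 5419 CPM (median 879) and the other 136 had 0 to 75.3 CPM (median 15.3). The 9 cells included all 3 with Zbtb32 at 50 CPM, and 6 of the 9 had at least 1 of the 5 features, against 15 of 136. Crip1, a LIM domain protein, had a median of 546 CPM in the 9 cells and 63.0 in the 136, and Apoe, a lipid carrier, 1389 and 58.1. Anxa2, a membrane-binding annexin, was at 176 CPM of summed counts in the 9 and 6.73 in the 136, and Ahnak, a large scaffold protein, at 281 and 70.9. Their medians per cell were 18.0 and 0 CPM for Anxa2 and 169 and 0 for Ahnak. The genes just named were higher in the 9 cells, and the follicular markers were lower in them. Fcer2a was at 65.9 and 331 CPM of summed counts, Ighd at 377 and 841, and Ighm at 3060 and 2180.2. By medians per cell, Fcer2a was at 6.08 and 107 CPM, Ighd at 250.5 and 626, and Ighm at 2184 and 1912. Values for single cells overlapped for each of these genes except S100a6. The 9 cells were deeper, with a median of 111282 counts against 67027, while Lyz2 (35.2 and 56.9 CPM) and S100a8 (72.2 and 109 CPM) were no higher in them. The part of depth in these differences was not tested.

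**Figure D4:**
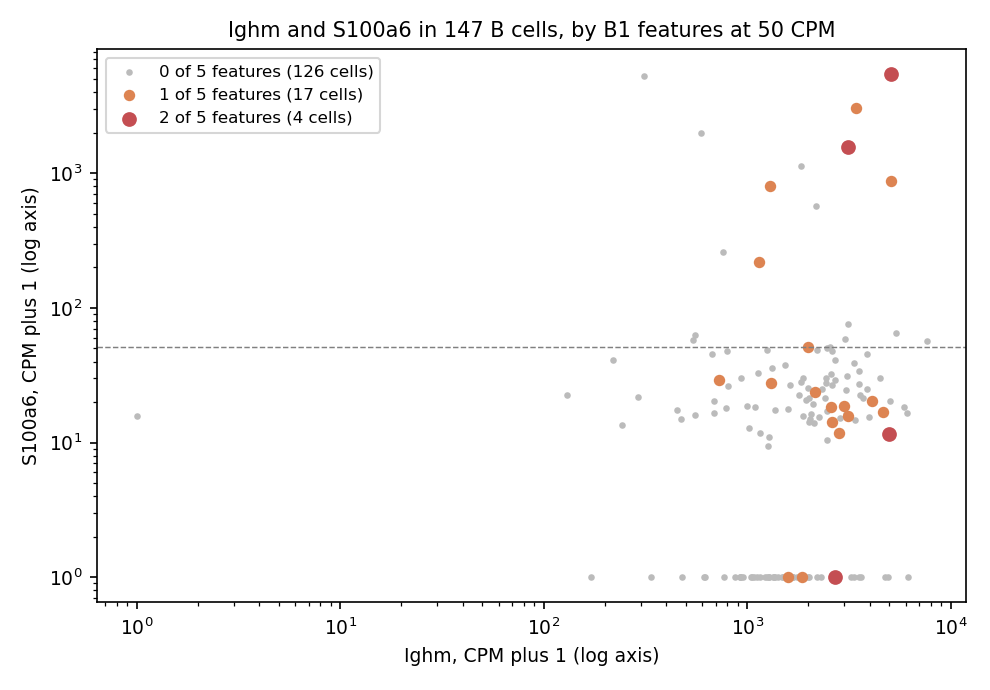
S100a6 against Ighm in each of the 147 B cells, as CPM plus 1 on log axes, coloured by how many of Cd5, Spn, Zbtb32, Bhlhe41 and Ctla4 reached 50 CPM; the dashed line is 50 CPM. Of the 11 cells with S100a6 above 200 CPM, the 2 at low Ighm are those with macrophage markers, and 2 of the 4 cells with 2 features are among the rest.

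Activation genes varied strongly between B cells. Of 16 tested against all other cells, 6 were higher and 4 lower (median log2 ratio of the list 0.28), and 10 of 15 were higher than in T cells with 2 lower. Over all genes tested, 20.7% were higher and 22.6% lower than in all other cells, and 18.1% and 12.5% than in T cells. The lower counts were thus near these shares. Cd69, an early activation antigen that retains lymphocytes in tissue, was 0 to 4008 CPM with a median of 8.99 and reached 50 CPM in 64 of 147 cells. Its sum was 288 CPM (278 to 299), against 58.8 in all other cells and 189 in T cells. At 25000 counts per cell it was found in 46.3% of B cells (38.0 to 54.7; 51.0% at full depth), 28.0% of T cells (33.0% at full depth) and 9.65% of mononuclear phagocytes. Cd83, an activation antigen of B cells and dendritic cells, was by contrast found widely, at 50 CPM or more in 131 cells with a median of 741 CPM, and summed to 890.3 CPM (873 to 908) against 479.8 in all other cells and 11.1 in T cells. Its ratio to all other cells, 1.86, was just under the limit of a call, and it passed when each cell was weighted alike (log2 ratio 1.51). The costimulatory gene Cd86 was at 259.7 CPM against 207 and was not called. Cd80, the other ligand of CD28, was lower at 21.6 against 158, and so was tested through the other cells alone. Cd40, the receptor for T cell help, was at 96.0 CPM (90.3 to 102) against 37.0. The next 2 genes were high in a minority of cells. Myc, a driver of growth, was at 89.8 CPM (84.2 to 95.6) against 20.6 and reached 50 CPM in 26 cells, and Irf4, a factor induced by receptor signals, was at 90.3 CPM (84.6 to 96.1) against 6.32 and did so in 38. Nfkbia, the inhibitor of NF-kB, was lower in B cells than in each comparison class, at 412 CPM against 1944 in all other cells and 1197 in T cells.

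These activation genes did not mark 1 common set of cells. Cd69 reached 50 CPM in 12 of 26 cells with Myc and 52 of 121 without (46.2%, 26.6 to 66.6, and 43.0%, 34.0 to 52.3), and in 24 of 51 cells with Egr1 and 40 of 96 without (47.1%, 32.9 to 61.5, and 41.7%, 31.7 to 52.2). Receptor-responsive early genes did overlap with each other. Egr1, an immediate early transcription factor, was 0 to 7031 CPM with a median of 0 and reached 50 CPM in 51 cells. It did so in 20 of 27 cells with Egr3 (74.1%, 53.7 to 88.9) and 31 of 120 without (25.8%, 18.3 to 34.6), and in 47 of 115 cells with Nr4a1 (40.9%, 31.8 to 50.4) and 4 of 32 without (12.5%, 3.51 to 29.0). Nr4a1, the orphan receptor that reports receptor signalling in B cells, was at 693 CPM against 461 in all other cells and 283 in T cells. Of the 13 genes in the general immediate early list, 0 were higher and 4 lower than in all other cells (median log2 ratio 0.01; 20.7% and 22.6% of all genes tested). Against T cells 2 were higher, Zfp36 and Atf3, and 0 lower (median 0.35; 18.1% and 12.5% of all genes tested). The count higher than in T cells was thus near the share over all genes. Fos was at 515 CPM against 1202, Jun at 329 against 326 and Dusp1 at 281 against 1046. Dissociation of tissue is known to raise immediate early genes, and its part in any activation gene was not tested.

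Of the germinal centre, plasma cell and dividing cell lists, some members were found in single cells and others more widely. Mki67, a proliferation marker, was at 0.185 CPM against 13.2 in all other cells. Of 11 germinal centre genes 2 were tested, with Neil1 higher (91.8 CPM against 11.3) and Basp1 lower. Jchain, which joins secreted IgM and IgA, came from 1 cell with 489 CPM, and Prdm1, the plasma cell regulator, reached 50 CPM in 2 cells. Of the plasma cell list 4 genes were tested against all other cells. Irf4, given above, was higher, Xbp1, a secretory regulator, was lower at 51.8 CPM against 146 and reached 50 CPM in 22 cells, Edem1 was lower at 36.7 against 85.3, and Hspa5, a chaperone, was not called at 517 against 946. Irf4 was also higher than in T cells and mononuclear phagocytes. Top2a, a topoisomerase of dividing cells, reached 50 CPM in 3 cells, and 1 cell held 78.2% of its counts. Of the memory list 4 genes were tested and 3 were higher: Zbtb20 at 159 CPM against 50.5, Hhex at 93.0 against 19.1, and Cd38, an ectoenzyme of resting and memory B cells, at 91.6 against 29.4. Cd80, the remaining gene, was lower and, as given above, was tested through the other cells alone. Beside these germinal centre, plasma cell and memory counts, 20.7% of all genes tested were higher than in all other cells and 22.6% lower.

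Cd74 and the classical class II chains reached 50 CPM in nearly every B cell (147 of 147 for Cd74, 146 for H2-Aa and 145 each for H2-Ab1 and H2-Eb1). Of 14 genes, 10 were higher than in all other cells and 2 lower (median log2 ratio 1.43), 13 of 13 tested were higher than in T cells (median 5.84), and 10 were higher and 2 lower than in mononuclear phagocytes (median 1.74). Over all genes tested, 20.7% were higher and 22.6% lower than in all other cells. These shares were 18.1% and 12.5% against T cells, and 23.7% and 26.0% against mononuclear phagocytes. Cd74, the invariant chain that escorts class II molecules, ranged from 2486 to 37147 CPM in single B cells with a median of 22533. Its sum was 21575 CPM (21487 to 21663), against 4648 in mononuclear phagocytes and 78.8 in T cells. H2-Aa, a class II alpha chain, had a median of 7669.7 CPM per cell and a sum of 7668 CPM (7616 to 7720.1) against 1847 in mononuclear phagocytes (ratio 4.15, 4.11 to 4.19). H2-Ab1 and H2-Eb1, the beta chains, were at 5615 and 3876 CPM against 1689 and 1148 in mononuclear phagocytes. All other cells together had 2535 CPM of H2-Aa, 2358 of H2-Ab1 and 1604 of H2-Eb1, more than mononuclear phagocytes, neutrophils or T cells. Other cells outside those classes thus held more of each chain, and B cells were not compared with them alone. Wide gaps were seen in the peptide editors that restrain or assist loading. H2-Oa and H2-Ob, which form the inhibitor of H2-DM, were at 362 and 622 CPM in B cells against 12.9 and 9.58 in mononuclear phagocytes. H2-DMb2 was at 1126 CPM against 14.9, while H2-DMb1 was at 299.5 against 154. H2-DMb1 was higher than in all other cells by these limits only when each cell was weighted alike (log2 ratio 1.75). Fractional values held 92.3% of H2-DMb2 and 96.6% of H2-DMb1 counts, so the split of reads between these near copies is uncertain. Ciita, the master activator of class II genes, was at 62.1 CPM (57.4 to 66.9) against 12.8 in all other cells. The 2 lower genes were Cd80, given above, and Ctss, the protease that trims the invariant chain, at 569 CPM against 2499 in mononuclear phagocytes and 128 in T cells. The 2 cells with macrophage markers held 2.24% of Cd74 counts.

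**Figure D5:**
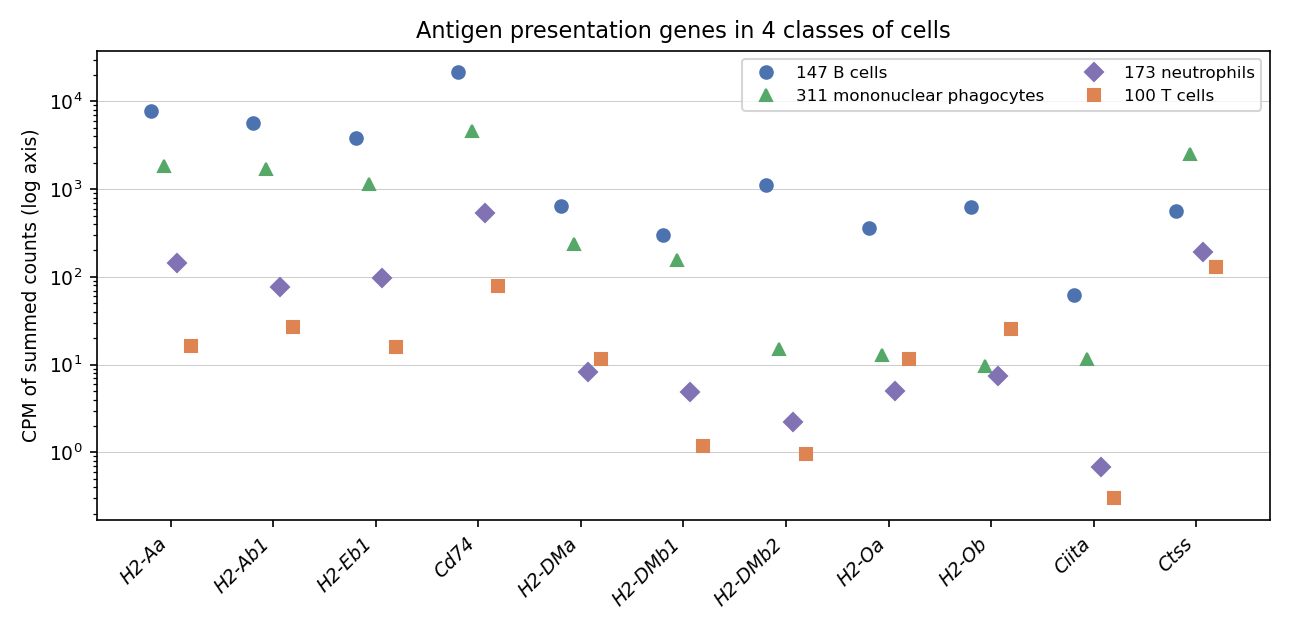
CPM of summed counts on a log axis for 11 of the 14 antigen presentation genes (without Cd40, Cd80 and Cd86) in B cells (circles), mononuclear phagocytes (triangles), neutrophils (diamonds) and T cells (squares). Among the classes shown, B cells lie highest for each gene except Ctss, with wide gaps to mononuclear phagocytes at H2-Oa and H2-Ob. Other cells in none of these classes are not shown. The split between H2-DMb1 and H2-DMb2 is uncertain.

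Since class II genes are known to share promoter elements, and were high together here, their promoters were read for the Y box, the CCAAT-type element of class II promoters (CTGATTGG on either strand). In RefSeq promoters of GRCm38.p6, from 250 bases before to 50 after the start, it was present in 3 of 7 matched class II genes (H2-Aa, H2-Eb1 and H2-Oa), in 43 of 562 matched genes higher in B cells (7.65%), in 29 of 626 lower ones (4.63%), in 6.55% of the 2749 matched genes tested and in 4.70% of 27025 promoters. The stretches from 40 bases before the element to the start, or to 50 bases after the element where the start lies further (H2-Eb1), are shown to let its place be compared, with the Y box in capitals, 5′ to 3′ along the gene, at chr17:34092293-34092378 (plus strand) for H2-Oa, chr17:34287824-34287914 (minus strand) for H2-Aa and chr17:34305765-34305862 (plus strand) for H2-Eb1.
H2-Oa: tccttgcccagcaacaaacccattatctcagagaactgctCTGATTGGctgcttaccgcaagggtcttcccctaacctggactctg
H2-Aa: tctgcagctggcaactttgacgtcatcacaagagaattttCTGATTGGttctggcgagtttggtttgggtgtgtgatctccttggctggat
H2-Eb1: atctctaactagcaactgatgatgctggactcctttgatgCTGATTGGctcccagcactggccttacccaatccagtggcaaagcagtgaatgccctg
The Y box began 46, 51 and 62 bases before the start in H2-Oa, H2-Aa and H2-Eb1. The octamer ATGCAAAT, bound by the partners of Pou2af1, was present in 18 of 562 higher genes (3.20%), 12 of 626 lower ones (1.92%), 2.04% of genes tested and 1.97% of all promoters, and in 0 of the 14 matched among the 25 leading genes. The motif TCCCNNGGGA, of the kind Ebf1 binds, was present in 16 of 562 higher genes (2.85%), among them Cd22 and Foxo1, in 7 of 626 lower ones (1.12%), in 1.53% of genes tested and 1.06% of all promoters, and also in 0 of the 14 leading genes. The ETS motif GAGGAAGT was present in 6.76% of higher genes, 7.35% of lower genes, 5.57% of genes tested and 3.69% of all promoters. A match is a description of these letters, not a binding site.

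Survival and migration genes gave mixed results. Of 9 survival and BAFF genes tested against all other cells, 4 were higher and 1 lower, where 20.7% and 22.6% of all genes tested were. Birc3, an inhibitor of apoptosis, was at 635 CPM against 306 (ratio 2.08, 2.02 to 2.13; log2 ratio 0.66 with each cell weighted alike, and then not called), and Bcl2, an anti-apoptotic protein, was lower than in T cells (62.3 against 239.6 CPM). Pim1, a survival kinase, was lower at 503 against 1900.0. The lower direction against all other cells thus rested on 1 survival gene, Pim1. Of 17 migration and adhesion genes tested, 7 were higher and 5 lower than in all other cells, and 3 higher and 6 lower of 19 against T cells, where the shares over all genes were 20.7% and 22.6%, and 18.1% and 12.5%. Cnr2, the cannabinoid receptor of B cells, was at 80.2 CPM against 23.0. The integrin genes Itgal and Itgb2, which form LFA-1, were lower at 29.5 and 36.0 CPM against 139.8 and 309.9, and Cd44, the hyaluronan receptor raised on antigen-experienced lymphocytes, was at 64.4 against 752. Itgal and Itgb2 were under 50 CPM in B cells and so were tested through the other cells alone, while Cd44 was not. The count of lower genes is thus no measure of migration or adhesion. Selplg, the selectin ligand, was at 52.6 CPM against 409 in T cells. Itga4, the alpha chain of the integrin for vascular VCAM1, was not called (215 against 135). Cxcr4, the receptor for CXCL12, was at 290.4 CPM in B cells, 229 in all other cells and 82.1 in T cells.

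Secreted factors were read from the cytokine and ligand list. Of 6 of its genes tested against all other cells, 1 was higher and 4 lower (median log2 ratio of the list -2.29), where 20.7% and 22.6% of all genes tested were. Ccl5, at 8.06 CPM in B cells, and Tnf were tested through the other cells alone. The count of lower genes is thus no measure of secretion. Ltb, the lymphotoxin beta chain that organises lymphoid tissue, was at 109.8 CPM against 52.6 and 116 in T cells, a call lost when each cell was weighted alike (log2 ratio 0.27). Tnf was lower at 11.0 CPM against 88.2, and 1 cell held 69.7% of its counts. Il10, the cytokine of regulatory B cells, was at 0.533 CPM with no cell at 50 CPM, and Il6 at 0.189. The chemokines Ccl3 and Ccl4 were at 103 and 176 CPM, and at 61.2 and 12.9 without the 2 cells with macrophage markers; Ccl3 reached 50 CPM in 9 cells. For Ccl4 most counts of the B cells thus came from 2 cells. Of 7 innate sensing genes tested, 1 was higher and 2 lower, near the shares over all genes (20.7% and 22.6%). Cd180, a receptor related to the Toll-like family on B cells, was at 81.4 CPM (76.1 to 87.0) against 24.3 and 1.26 in T cells, while Tlr2 was at 6.58 against 139. Tlr7 and Tlr9, the sensors of RNA and DNA, were at 7.73 and 5.27 CPM, too low for a call. Of 10 interferon-stimulated genes tested, 2 were higher, near the share over all genes, and 6 lower (median log2 ratio of the list -1.93). Isg15 was at 10.3 CPM against 179, and so was tested through the other cells alone, and Ifi27l2a was at 194 against 546. By contrast, Ifi203 was at 154 CPM (146 to 161) against 62.0. Ly6e was at 2712 against 1362 with a ratio of 1.99, just under a call that 6 alternatives gave it.

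The 25 genes with the highest ratio to all other cells included Cd79a, Ms4a1, Iglc2, Gm30211, Ighd, Igkc, Cd79b, Ly6d, Ighm, Scd1, Fcmr, Ebf1, Bank1, H2-DMb2, Iglc3, Fcer2a, Cd55, H2-Ob, Pax5, Hvcn1, Fcrla, Pou2af1, Ralgps2 and Fcrl1. Several have no role in the receptor. Ly6d, a surface antigen of the lineage, ranged from 0 to 6789 CPM with a median of 777 and summed to 1018 CPM (999 to 1038) against 0.399 in T cells and 0.502 in mononuclear phagocytes. Scd1, the desaturase that makes monounsaturated fatty acids, was at 631 CPM (616 to 646) against 15.4 in all other cells (ratio 41.0, 38.7 to 43.5) and reached 50 CPM in 134 of 147 cells. At 25000 counts per cell it was found in 91.8% of B cells, 3% of T cells and 3.22% of mononuclear phagocytes, with 92.5% of B cells and 9% of T cells at full depth. Scd1 was thus found in most B cells and in few T cells or mononuclear phagocytes. Fcmr, the Fc receptor for IgM, was at 555 CPM (541 to 569) against 11.9. Hvcn1, a voltage-gated proton channel, was at 381 CPM (369.7 to 393) against 13.1, and Cd55, a complement regulator, at 567 CPM (553 to 582) against 23.4 and 90.1 in T cells. Pecam1, which the endothelial marker list holds, was also higher in B cells, at 108 CPM (102 to 114) against 23.3, while Cdh5, Kdr and Egfl7 were at 0.440, 0.278 and 0.0309 CPM.

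The genes lowest in B cells were those of neutrophils and macrophages. They included Chil3 (20.7 CPM against 3595), Retnlg (14.0 against 2116), Cxcl2 (59.8 against 4024, and 33.7 without the 2 cells with macrophage markers) and Hp (4.82 against 931), and, from cytotoxic lymphocytes, Ccl5 (8.06 against 997, with 3985 in T cells). Several of the most variable genes among the B cells had most of their counts in 1 cell. Over all 147, Ccl4, Lyz2, Mt1, Il1b and Mt2 led, with 68.0 to 90.3% of counts of Ccl4, Mt1, Il1b and Mt2 from 1 cell. Without the 2 cells with macrophage markers, Copg2, Crip1, S100a6, Ciz1 and Mtch1 led. Copg2, a coat protein of vesicles, had 76.1% of its counts in 1 cell, whereas Crip1 reached 50 CPM in 81 cells and its top cell held 24.2%.

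The reporter was read through mCherry, the 1 reporter transcript named in the matrix, whose place in REFLEX no source states. It was above 0 in 86 B cells and at 50 CPM or more in 64, with a sum of 186 CPM (177 to 194) against 454 in all other cells. At 25000 counts per cell it was found in 45.6% of B cells (37.4 to 54.0; 58.5% at full depth), 57.0% of T cells (46.7 to 66.9; 69.0% at full depth), 89.7% of mononuclear phagocytes and 93.6% of neutrophils. By the tag in the cell name, B cells were 45 of 316 cells of A951 (14.2%, 10.6 to 18.6), 4 of 134 of A952 (2.99%, 0.819 to 7.47), 29 of 114 of A953 (25.4%, 17.7 to 34.4) and 64 of 247 of A965 (25.9%, 20.6 to 31.8). The share was thus lowest in A952. In the hashtag library, however, A951 was the highest tag in 28 of 29 B cells named A953 and 61 of 64 named A965, so the highest count did not give the name. mCherry was at 159 CPM in B cells of A951, 81.9 in A952, 122 in A953 and 246 in A965, and Cd69 reached 50 CPM in 15 of 45, 1 of 4, 10 of 29 and 36 of 64. Ighd, Fcer2a and H2-Aa were found in each. No source states what sets the tags apart, and these values do not compare sorted fractions.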

How the data were processed

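One pool of sorted heart cells gave 1 transcriptome library and 1 hashtag library on the BD Rhapsody system with the TAS-Seq workflow, per the labels' protocols. The transcriptome file holds estimated counts per gene and cell as deposited by the authors, not normalized; 69.8% of values above 0 are whole numbers. The hashtag file holds tag counts for 1000000 barcodes as deposited by the authors. No source states whether reads or molecules were counted. The tools named are R 4.3.1, STAR, STARsolo 2.7.10b and cutadapt 4.1, and the build is GRCm39, per the submitters' processing notes, which give no role or order here.

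Counts were summed over cells and scaled to CPM, with Python 3.11.15, NumPy 2.4.6, pandas 2.3.3 and SciPy 1.17.1; figures used Matplotlib 3.10.9. T cells had Cd3d or Cd3e at 50 CPM, mononuclear phagocytes had Csf1r, and neutrophils had Csf3r and S100a8 at 1000.0 CPM, each without Cd79a and without the T cell or Csf1r markers of the others. Cells with over 25% mitochondrial counts (21 of 878) were in no class. No doublet caller was run, and cells named doublet were kept. For shares at equal depth each cell was thinned to 25000 counts, and 0 cells were too shallow. Genes could be named from 20 gene lists or 14 marker lists, or as leading genes by ratio with 20 CPM added (25 higher, 15 lower, 10 each against T cells and mononuclear phagocytes, 15 variable). B cells and lists were chosen with earlier results of these data known, and the EBF, Y box and ETS motifs after seeing the data. RefSeq promoters of GRCm38.p6, a build other than that of the counts, were matched by symbol. Ratios and intervals were checked on simulated counts with known ratios. The simulated counts were Poisson draws from pooled totals, without differences between cells. The check thus covers the calculation and not the spread between cells in these data. The 9 alternatives fixed with the design were other member thresholds (25 and 100 CPM), a 10% mitochondrial limit, leaving out cells named doublet, leaving out members with markers of another type, weighting each cell alike, a 10 CPM level, no minimum count and thinning. A further 5 were added after seeing the data. Some results are not reported here.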

Additional observations from a re-analysis of the deposited data

How the results depend on the processing

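No called gene turned direction under the 9 settings each gene was run with. The kappa share passed to the other side of 50% with Gm30211 added, and medians near 0 changed sign for immediate early genes (-0.31 with each cell weighted alike) and for survival and BAFF genes in the same setting. The number of B cells ranged from 142 to 162, the most with Cd79a as the only positive marker. Lowering the level a call needs from 50 to 10 CPM gave 2197 genes higher and 1831 lower against all other cells, 1815 and 1396 against T cells, and 2552 and 1925 against mononuclear phagocytes, since more genes could pass. The share of cells with at least 1 of the 5 B1 features was 39.5% when any count after thinning was taken. The kappa share was 35.6% with each cell weighted alike, 32.8% at a member threshold of 100 CPM and 53.5% with Gm30211 added. Of 3177 single-gene values, 3126 kept their call, 19 gained one and 32 lost one. Of 171 list medians 166 stayed within their limits. The others were antigen presentation at 2.24, cytokines at -2.95 and dividing at -0.34 with each cell weighted alike, the receptor list at 6.29 without other cells that had Cd79a, and interferon-stimulated genes at -1.11 with Cd79a as the only positive marker. Apart from the settings' own construction, causes were not tested. No paired analysis was possible because there was 1 transcriptome library. A gene in 0 of 147 B cells could have a count in up to 2.04% of such cells, and 3 counts correspond to 0.278 CPM.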
